A study of Homo sapiens with 9 samples.

Results

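The genes of the mitochondrial ribosomal proteins were followed in H295R, a steroid-producing cell line from a human adrenocortical carcinoma. They were taken as every gene whose only symbol in the array annotation is MRPL or MRPS followed by a number and, in some, a letter, and 73 of the 18417 genes with a symbol of their own met this rule. Each gene was represented by its brightest probe set, the group of array probes that together give 1 value. Expression was measured on GeneChip Human Gene 1.0 ST arrays, with 3 arrays in each of 3 groups. All cells first grew for 24 h in normal growth medium. For the next 48 h they were kept with 10 mM metformin in serum-free medium (starvation with metformin), in serum-free medium alone (starvation), or in normal growth medium (normal growth). By the paper's methods, starvation medium also lacked the insulin, transferrin and selenium that growth medium held. The starved groups differ in metformin alone, whereas starvation with metformin against normal growth changes serum, these supplements and the drug together. A single cell line was used. The series description speaks of 3 independent experiments, and the paper describes such experiments for normal growth and starvation only, so the spread behind p values that involve metformin may be technical.

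Mitochondria carry their own ribosome, which in human cells makes the few membrane proteins of the respiratory chain that mitochondrial DNA encodes. Its RNAs come from mitochondrial DNA, but all of its proteins are encoded in the nucleus, made in the cytosol and imported. The large subunit joins amino acids and guides the new chain out through a tunnel, and the small subunit binds the mRNA and reads its codons. Some of the proteins descend from those of bacterial ribosomes and others exist only in mitochondria. In steroid-making cells, mitochondria also house the first step of steroid synthesis. Metformin, a drug for type 2 diabetes, is known to inhibit respiratory complex I.

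Of the 73 genes, 48 have MRPL and 25 have MRPS symbols. By the known structure of the ribosome, 50 encode proteins of the large subunit and 23 of the small subunit, since the proteins of MRPS18A and MRPS30 sit in the large subunit despite their names. By the unified names of ribosomal proteins, 43 belong to bacterial families and 30 are named as mitochondria-specific. The second count includes MRPS18A and MRPS18B, which are named so although, like MRPS18C, they are related to bacterial S18. MRPL51, MRPS6, MRPS24 and MRPS28 were measured only by probe sets that the annotation shares with another gene and are left out, and MRPS36 was not analysed here. MRPL20, MRPS18B and MRPL36 had several probe sets. Those of MRPL20, and those of MRPS18B, had identical values and are therefore 1 measurement each.

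Promoter sequences were matched to 66 of the 73 genes, which have 82 windows of 250 bases before to 50 bases after a gene start in RefSeq (GRCh38.p14). In cells of many kinds, promoters of mitochondrial genes are known to bind NRF1, YY1 and GABPA, a member of the ETS family. Letters typical of these factors were searched on both strands. The NRF1 pattern GCGCANGCG stood in 18.3% of the windows and in 7.52% of all windows in the table. The ETS pattern CCGGAAGT stood in 15.9% against 4.14%, and the YY1 pattern AANATGGCG in 20.7% against 3.19%. Among windows of protein-coding genes alone, the shares of NRF1, ETS and YY1 were 9.64%, 5.34% and 4.24%. Of the 66 genes, 35 held at least 1 of these patterns. Most matches to the YY1 letters, 15 of them, lay downstream of the start on the strand of the gene, with 2 upstream on that strand and 2 on the other strand. The E-box CACGTG was found in 11% of the windows and in 7.26% of all, the CRE letters TGACGTCA in 1.22% and 1.85%, and the ATF4 letters TGATGNAA in 1.22% and 3.62%. Windows of protein-coding genes had these 3 in 8.34%, 2.26% and 2.69%. Overlaps between patterns were not counted. A gene with several windows was counted once for each, and its windows can overlap, as those of MRPS22 and MRPL47 do. The ETS letters thus stood in 13 windows of 11 genes. A match is a description of letters only, and binding was not measured. The promoters of MRPL27, MRPL16, MRPL20 and MRPL44 are shown because these genes had the largest differences between starvation with metformin and normal growth. Each stretch runs 5′ to 3′ on the strand of its gene, from 220 bases before the start to 30 bases after it, with matches to the ETS or NRF1 letters in capitals. MRPL27 lies at chr17:50373155-50373404 on the minus strand, MRPL16 at chr11:59810749-59810998 on the minus strand, MRPL20 at chr1:1407264-1407513 on the minus strand and MRPL44 at chr2:223957243-223957492 on the plus strand.
MRPL27: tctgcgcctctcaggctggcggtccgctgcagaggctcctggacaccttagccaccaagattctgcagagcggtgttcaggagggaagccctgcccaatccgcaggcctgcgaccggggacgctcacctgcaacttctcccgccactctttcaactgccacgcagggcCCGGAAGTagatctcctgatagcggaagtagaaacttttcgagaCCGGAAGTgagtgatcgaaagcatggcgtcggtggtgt
MRPL16: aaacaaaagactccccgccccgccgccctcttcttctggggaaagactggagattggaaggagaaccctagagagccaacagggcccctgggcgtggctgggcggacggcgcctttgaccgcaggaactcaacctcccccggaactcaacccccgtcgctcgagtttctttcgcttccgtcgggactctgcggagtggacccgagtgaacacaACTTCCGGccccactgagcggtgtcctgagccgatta
MRPL20: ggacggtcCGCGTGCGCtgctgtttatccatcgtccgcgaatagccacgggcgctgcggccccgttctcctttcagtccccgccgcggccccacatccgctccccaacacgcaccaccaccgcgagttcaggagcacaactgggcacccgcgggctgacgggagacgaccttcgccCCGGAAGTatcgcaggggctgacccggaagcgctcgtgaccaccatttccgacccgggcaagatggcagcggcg
MRPL44: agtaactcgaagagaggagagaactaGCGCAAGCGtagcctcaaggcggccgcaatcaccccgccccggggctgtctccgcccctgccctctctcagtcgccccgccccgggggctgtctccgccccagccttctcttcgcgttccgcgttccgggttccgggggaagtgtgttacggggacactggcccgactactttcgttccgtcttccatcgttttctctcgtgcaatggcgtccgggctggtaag

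In these stretches MRPL27 held the ETS letters at positions -52 and -8 counted from the start, MRPL20 at -44, and MRPL16 at -7 on the opposite strand. The NRF1 letters stood at -212 in MRPL20, on the opposite strand, and at -194 in MRPL44. The 11 genes with ETS letters had a median log2 difference of -0.18 between starvation with metformin and normal growth, and the other 55 genes with a promoter in the table one of -0.08. The 14 genes with NRF1 letters had a median of -0.16 and the remaining 52 one of -0.10. The 17 with YY1 letters and the other 49 had medians of -0.10 each. These medians are given as descriptions, and their differences were not tested.

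Values lay between 1.57 and 13.7 on the log2 scale over the 9 arrays, with pairwise correlations between 0.984 and 0.997. Within groups the lowest correlation was 0.996 in normal growth, 0.994 in starvation and 0.990 in starvation with metformin. The array medians lay between 6.04 and 6.16. Array B of starvation had the highest median, against 6.05 and 6.04 on arrays A and C of that group. Of 11 measured adrenocortical markers, among them STAR, CYP11A1 and NR5A1, 8 were above the median signal of all named genes. In starvation with metformin against starvation, 1 of the 11 passed the test as higher and 3 as lower (3.14% and 2.89% of all named genes). Against normal growth, 1 was higher and 4 lower in starvation with metformin (6.15% and 6.36%), and 1 was lower in starvation (0.163%). The genes of this list had array means of 8.85 to 9.10 in starvation with metformin, 9.09 to 9.14 in starvation and 9.37 to 9.47 in normal growth, and whether its shift bears on the results below was not tested. Marker lists of fibroblasts, endothelial, immune and epithelial cells had array means between 4.21 and 6.22 in the 3 groups. In that order, 2 of 10, 1 of 8, 0 of 7 and 2 of 9 of their genes were above the median signal of all named genes. Of the genes of these 4 lists only EPCAM passed the test in any comparison, at 0.57 higher in starvation with metformin than in normal growth. In bulk RNA, fewer cells of a type and less RNA per cell cannot be told apart.

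The 73 genes were bright on the array. Their probe sets had a median level of 9.13, against 7.08 for all named genes, and 69 of the 73 were above that median. The signal of a probe set depends on its probes, so the levels of different genes do not rank their mRNAs. MRPS21 (11.45), MRPL50 (11.38) and MRPS15 (11.09) had the brightest probe sets, followed by MRPS11 (11.09). The dimmest were MRPL13 (6.19), MRPS18C (6.34) and MRPL54 (6.57). RMA gave MRPS27 the same value on all 3 arrays of starvation with metformin, so its SD of 0 there is no measure of biological spread. In all, 13 genes had the same value on at least 2 arrays of a group. Their SDs in such groups are a poor measure of biological spread, and not all were small. In starvation the SD was 0.0014 for MRPL17 and 0.086 for MRPL32.

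**Figure D1:**
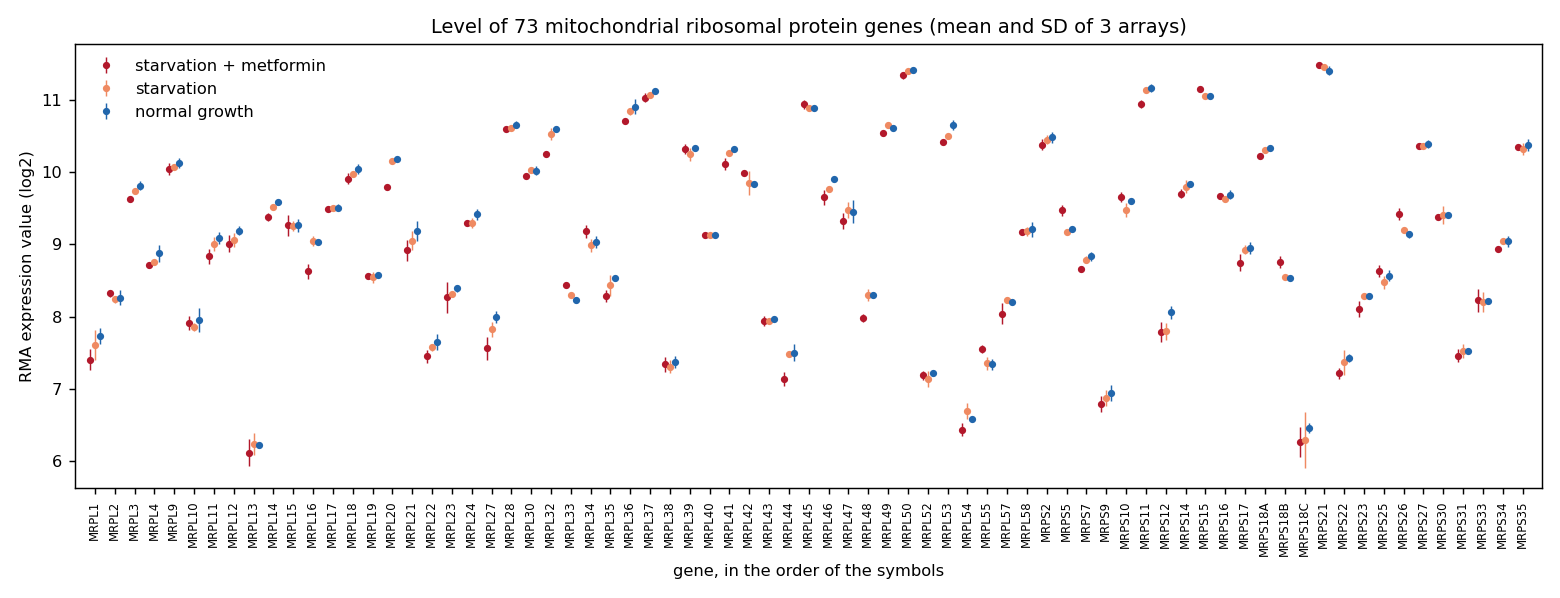
Log2 signal (vertical axis) of the 73 genes in the order of their symbols (horizontal axis), with a point for the mean and a line for the SD of the 3 arrays of each group. The points of a gene lie close together, and means over the 9 arrays run from 6.19 for MRPL13 to 11.45 for MRPS21.

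The mean over the 73 genes differed little between conditions. It was 9.06, 9.02 and 9.02 on arrays A, B and C of starvation with metformin, 9.10, 9.04 and 9.11 in starvation, and 9.13, 9.10 and 9.15 in normal growth. All 3 arrays of starvation with metformin lay below all 3 of normal growth, whereas starvation overlapped with both. The same held for the mean over all named genes, at 7.029 to 7.038 against 7.040 to 7.056. The group means were 9.03 and 9.13 for the 73 genes, and 7.032 and 7.046 for all named genes. The mean of the 50 large subunit genes was 9.02 ± 0.019 in starvation with metformin, 9.10 ± 0.024 in starvation and 9.15 ± 0.027 in normal growth (SD, n = 3 arrays each). That of the 23 small subunit genes was 9.05 ± 0.036, 9.05 ± 0.062 and 9.10 ± 0.022 in the same order of groups.

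**Figure D2:**
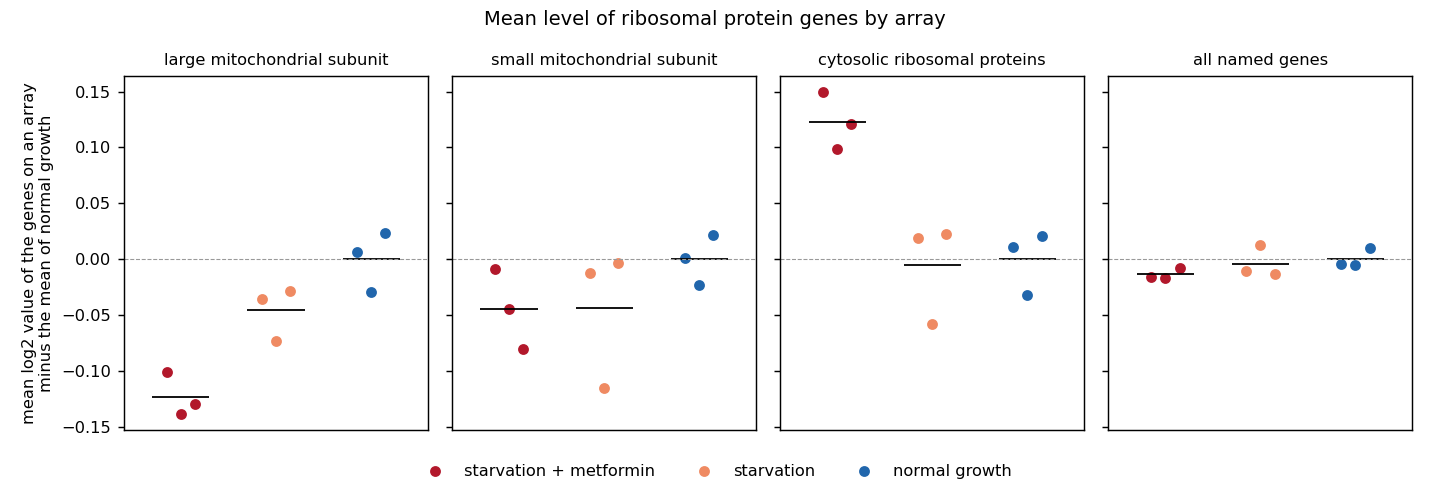
Mean log2 signal of a gene set on each array minus the normal growth mean of that set (vertical axis), in panels for the large and small mitochondrial subunits, cytosolic ribosomal proteins and all named genes, with a point for each array and a line for the mean of each group, in the colours of the legend. For the large subunit all arrays of starvation with metformin lie below all arrays of the other groups, and for the small subunit the groups overlap.

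Starvation with metformin against starvation asked what the drug changed in starved cells. Genes were called at an adjusted p under 0.05 (limma, Benjamini-Hochberg over all probe sets), at any fold. MRPL16 and MRPL20 fell and none of the 73 rose, and no difference reached 2-fold. The share called lower was 2.74%, with 2.89% of all named genes called lower, and 3.14% of all named genes were called higher. Of the 9208 named genes above the median signal, 5.09% were called higher and 4.84% lower. With an unadjusted p under 0.05, 6 of the 73 were higher and 10 lower, beside 12.3% and 11.3% of all named genes. Of those above the median signal, 18.8% and 17.8% were. The 3 arrays of each group did not overlap for 10 genes that were higher (15.7% of all named genes) and 22 that were lower (15.2% of all named genes). The 10 higher genes are 13.7% of the 73 and the 22 lower ones 30.1%. Of the 9208 named genes above the median signal, 24.6% were higher and 23.9% lower without overlap. The median log2 difference was -0.05 over the 73 genes and -0.03 over all named genes, with 48 of the 73 below 0 (65.8%), beside 56.7% of all named genes and 50.4% of those above the median signal.

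MRPL16 encodes the uL16 protein, which lies near the site where amino acids are joined. Its signal was 8.60, 8.74 and 8.54 on arrays A, B and C of starvation with metformin, against 9.07, 8.96 and 9.09 in starvation. The groups did not overlap, and the log2 difference was -0.41 ± 0.08 (SE, adjusted p = 0.0445). MRPL20, whose bacterial relative is an early assembly protein of the large subunit, had 9.81, 9.79 and 9.77 in starvation with metformin, against 10.19, 10.14 and 10.14 in starvation. Its arrays lay close together within either group, and the difference was -0.37 ± 0.05 (SE, adjusted p = 0.0246). Leaving out any 1 of the 6 arrays ended the call of MRPL16 (adjusted p between 0.0569 and 0.179), and leaving out any but array C of starvation with metformin ended that of MRPL20 (adjusted p between 0.0625 and 0.123, and 0.0472 without array C).

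Other differences did not pass the test. MRPL44, which has a ribonuclease III-like fold and sits near the exit of the tunnel, had 7.18, 7.21 and 7.02 in starvation with metformin, against 7.51, 7.45 and 7.49 in starvation (adjusted p = 0.0539). MRPL48, of the central protuberance, had 7.96, 7.95 and 8.05 in starvation with metformin, against 8.35, 8.20 and 8.33 in starvation (adjusted p = 0.0678). In both genes the groups were apart on every array. The highest positive difference was that of MRPS5, near the entry of the mRNA, with 9.55, 9.39 and 9.48 in starvation with metformin against 9.19, 9.14 and 9.20 in starvation (adjusted p = 0.0614). MRPS18B, a small subunit relative of bacterial S18, had 8.78, 8.66 and 8.82 in starvation with metformin, against 8.55, 8.55 and 8.54 in starvation (adjusted p = 0.134). MRPL55, a large subunit relative of bacterial L31, had 7.53, 7.52 and 7.61 in starvation with metformin, against 7.41, 7.39 and 7.26 in starvation (adjusted p = 0.174). MRPS26, a small subunit protein specific to mitochondria, had 9.40, 9.35 and 9.51 in starvation with metformin, against 9.17, 9.22 and 9.21 in starvation (adjusted p = 0.127). None of these 4 genes with positive differences had an array of starvation with metformin below one of starvation.

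**Figure D3:**
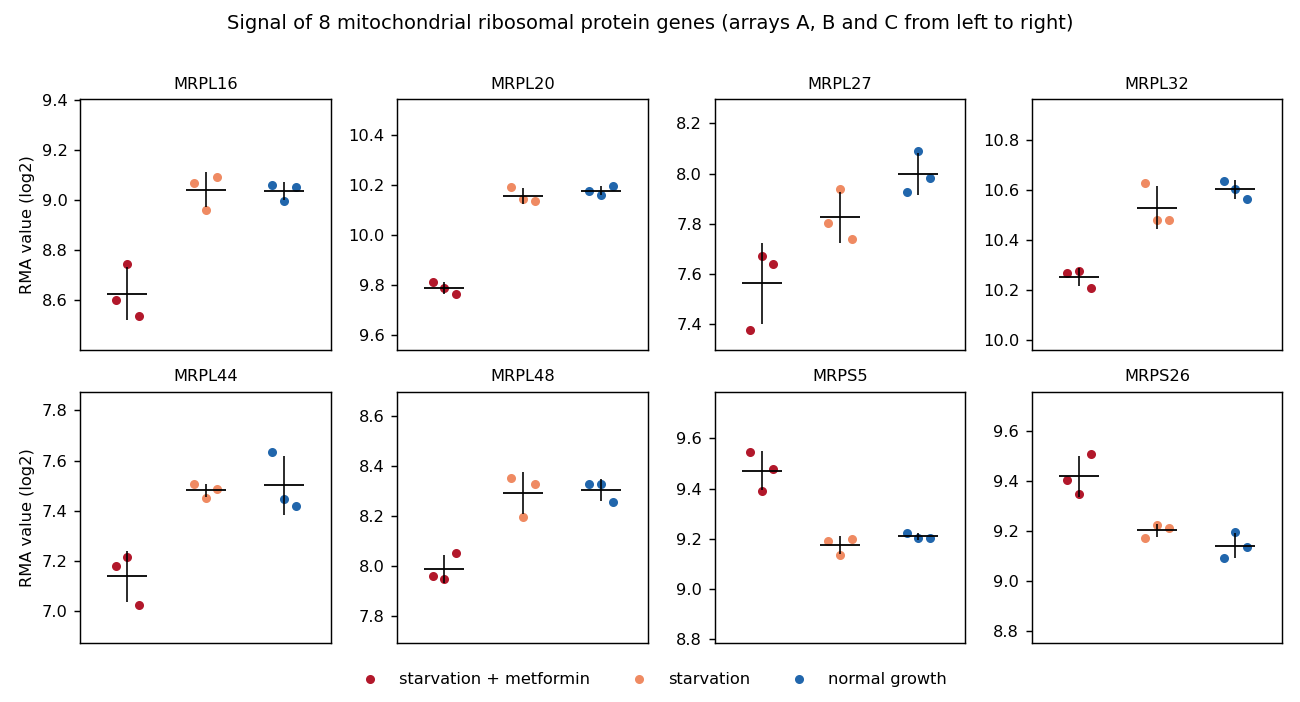
Log2 signal (vertical axis) of 8 genes on every array of the 3 groups (horizontal axis), with a point for each array and a bar for the mean and SD of the 3 arrays. MRPL20 lies between 9.77 and 9.81 in starvation with metformin and between 10.14 and 10.20 on the 6 other arrays.

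Starvation against normal growth asked what the withdrawal of serum, insulin, transferrin and selenium changed. None of the 73 genes was called in either direction (lowest adjusted p = 0.374, by limma), where 0.0652% of all named genes were called higher and 0.163% lower. With an unadjusted p under 0.05, none was higher and 3 were lower (MRPL46, MRPL53 and MRPS12), beside 4.12% and 5.77% of all named genes. Of those above the median signal, 5.93% and 8.92% were. Groups did not overlap for 2 higher genes, MRPL33 and MRPL54 (6.86% of all named genes), and for 9 lower genes (9.62% of all named genes). These are 2.74% and 12.3% of the 73, with 9.85% and 15.6% among the named genes above the median signal. The median log2 difference was -0.04, and 57 of the 73 genes (78.1%) were below 0, beside 50.4% of all named genes and 57.6% of those above the median signal. The differences ran from -0.26 to 0.10, and the 95% interval lay within 1.5-fold for 72 of the 73 genes.

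The most negative value was that of MRPS12, whose protein belongs to the decoding centre. Its signal was 7.88, 7.67 and 7.85 in starvation, against 8.12, 8.11 and 7.96 in normal growth (-0.26 ± 0.08, SE, adjusted p = 0.424). MRPL53, at the stalk base where translation factors bind, had 10.48, 10.52 and 10.52 in starvation, against 10.71, 10.67 and 10.58 in normal growth (adjusted p = 0.503). MRPL46, of the central protuberance, had 9.77, 9.76 and 9.77 in starvation, against 9.93, 9.88 and 9.93 in normal growth (adjusted p = 0.374). All 3 genes had every starvation array below every normal growth array. MRPL54 had the most positive value, with 6.60, 6.82 and 6.65 in starvation against 6.59, 6.60 and 6.58 in normal growth (adjusted p = 0.8). MRPL33, a relative of bacterial L33, had 8.29, 8.29 and 8.31 in starvation, against 8.19, 8.23 and 8.28 in normal growth (adjusted p = 0.808). MRPS21, the brightest of the genes, had 11.47, 11.45 and 11.45 in starvation, against 11.45, 11.33 and 11.43 in normal growth (adjusted p = 0.851). MRPS18C scattered more than the others, with 6.63, 5.87 and 6.39 in starvation against 6.54, 6.39 and 6.45 in normal growth (adjusted p = 0.889). Its difference was -0.16 with all arrays and 0.048 without array B of starvation, so it has no settled sign.

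Starvation with metformin against normal growth sets the combined change of medium and drug against growing cells. It shares its arrays with the comparisons above and is no independent test of them. Here MRPL27, MRPL16, MRPL20, MRPL32 and MRPL48 fell and MRPS5 and MRPS26 rose, all by less than 2-fold. The 5 lower genes are 6.85% of the 73, beside 6.36% of all named genes called lower, and the 2 higher ones 2.74%, beside 6.15% called higher. Of the 9208 named genes above the median signal, 10.9% were called lower and 9.84% higher. At an unadjusted p under 0.05, 6 genes were higher (13.5% of all named genes) and 24 were lower (15% of all named genes). These are 8.22% and 32.9% of the 73, with 20.6% and 24% among the named genes above the median signal. Without overlap between groups, 8 were higher (16.8% of all named genes) and 30 lower (19% of all named genes). The 8 higher genes are 11% of the 73 and the 30 lower ones 41.1%, with 25.7% and 29.8% among the named genes above the median signal. The median log2 difference was -0.10 over the 73 genes and -0.02 over all named genes. It was below 0 in 59 of the 73 genes (80.8%), in 55.6% of all named genes and in 52.6% of those above the median signal.

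**Figure D4:**
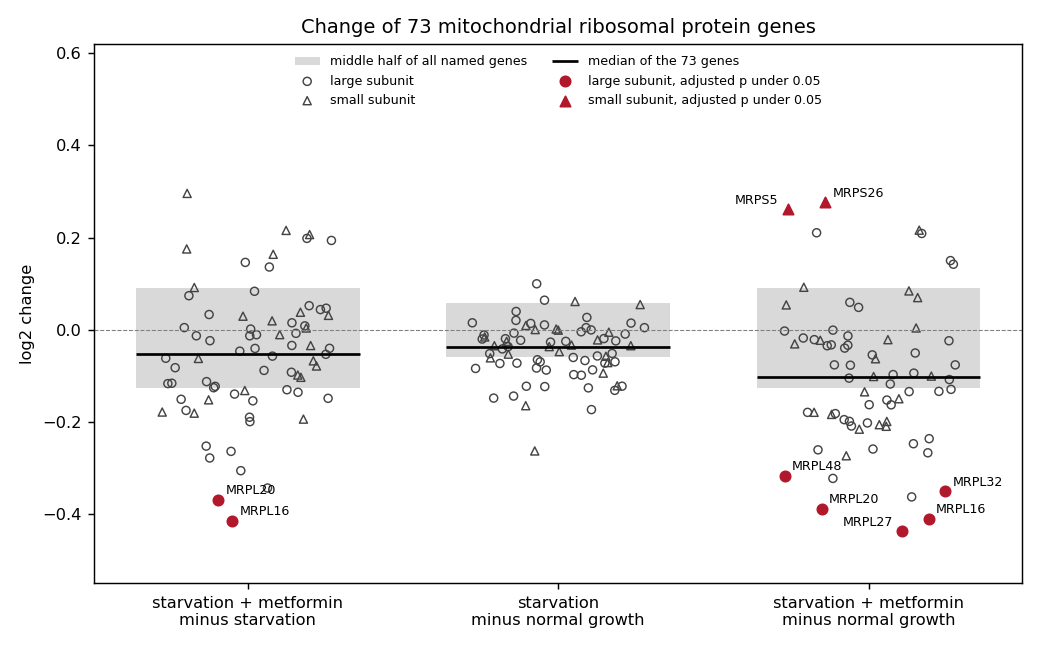
Log2 differences of the 73 genes (vertical axis) in the 3 comparisons (horizontal axis), with circles for the large and triangles for the small subunit, filled where the adjusted p was under 0.05, and a band for the middle of the distribution of all named genes from the lower to the upper quartile. The median of the 73 genes lies at -0.05, -0.04 and -0.10 from left to right. The filled points below 0 are all of the large subunit, to which 50 of the 73 genes belong.

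All 5 genes that fell belong to the large subunit, as do 50 of the 73 genes. MRPL27, whose bacterial relative reaches into the site where amino acids are joined, had 7.38, 7.67 and 7.64 in starvation with metformin, against 7.92, 8.09 and 7.98 in normal growth. Its groups did not overlap, and the difference was -0.44 ± 0.10 (SE, adjusted p = 0.0467). In starvation MRPL27 had 7.80, 7.94 and 7.74, which overlapped with normal growth and not with starvation with metformin. MRPL16 had 9.06, 8.996 and 9.05 in normal growth, close to its starvation values, and fell in starvation with metformin by 0.41 on the log2 scale (SE 0.07, adjusted p = 0.0223). MRPL20 had 10.18, 10.16 and 10.20 in normal growth and fell by 0.39 in starvation with metformin (SE 0.05, adjusted p = 0.00978). MRPL32, which is known to be trimmed by a protease of the inner membrane before it joins the ribosome, had 10.27, 10.27 and 10.21 in starvation with metformin, against 10.64, 10.60 and 10.56 in normal growth (-0.35 ± 0.05, SE, adjusted p = 0.0151). MRPL48 had 8.33, 8.33 and 8.26 in normal growth, and was 0.32 lower in starvation with metformin (SE 0.05, adjusted p = 0.024). For all 5 genes the lowest normal growth array was above the highest array of starvation with metformin.

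The 2 genes that rose belong to the small subunit. MRPS5 had 9.22, 9.20 and 9.20 in normal growth, and was 0.26 higher in starvation with metformin (SE 0.06, adjusted p = 0.046). MRPS26 had 9.09, 9.19 and 9.14 in normal growth, and was 0.28 higher in starvation with metformin (SE 0.06, adjusted p = 0.0496). Neither group of arrays overlapped with the other in these genes. At an unadjusted p under 0.05 (limma), 17 large and 7 small subunit genes were lower, and 3 of each subunit were higher. Whether the subunits differ in response was not tested.

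All 7 calls rest on few arrays. Leaving out any 1 of the 3 normal growth arrays ended each of them, with adjusted p between 0.0558 and 0.175. MRPL20 and MRPL32 stayed under 0.05 without any 1 array of starvation with metformin (at most 0.0297 and 0.0421). MRPL27 and MRPS26 lost the call without any 1 of these (adjusted p of at least 0.0595 for MRPL27 and at least 0.06 for MRPS26). MRPL16 lost it without array A (0.0675), MRPL48 without A (0.0655) or B (0.0637), and MRPS5 without A (0.0904) or C (0.0653).

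Among genes that missed the threshold, MRPL44 had 7.63, 7.45 and 7.42 in normal growth and was 0.36 lower in starvation with metformin (adjusted p = 0.055). MRPL33 was 0.21 higher (adjusted p = 0.0608) and MRPS18B 0.22 higher (adjusted p = 0.0804). MRPS12 had 7.87, 7.86 and 7.63 in starvation with metformin, near its starvation values, and its difference from normal growth was -0.27 (adjusted p = 0.13).

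The genes were also read by where their proteins sit, as descriptions with no test between sites. Many genes, among them MRPL18, MRPL27 and MRPL55, were assigned to no site, so the list of a site need not be complete. Of the 50 large subunit genes, 44 were below 0 in starvation with metformin against normal growth, with a median of -0.11, and of the 23 small subunit genes 15, with a median of -0.06. The 43 genes of bacterial families had a median of -0.13, and the 30 named as mitochondria-specific one of -0.05. At the stalks, where translation factors and leaving tRNAs bind, all 6 assigned genes were below 0 with a median of -0.21. They ran from -0.32 for MRPL1 to -0.05 for MRPL10, and none was called. MRPL12, which forms the flexible stalk, had 8.87, 9.06 and 9.09 in starvation with metformin, 9.12, 8.95 and 9.12 in starvation, and 9.21, 9.23 and 9.12 in normal growth, with overlap among neighbouring groups. At the tunnel exit, 7 of 8 genes were below 0 with a median of -0.12, from -0.36 for MRPL44 to 0.05 for MRPL45, whose protein holds the ribosome to the inner membrane. The 5 genes assigned to the central protuberance had a median of -0.04, from -0.32 for MRPL48 to -0.0026 for MRPL40. In the head of the small subunit, 6 of 8 genes were below 0 with a median of -0.08, from -0.18 for MRPS7 to 0.05 for MRPS10. The 2 genes assigned to the decoding or mRNA entry site went apart, with -0.27 for MRPS12 and 0.26 for MRPS5, of which MRPS5 alone was called.

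MRPS18A, MRPS18B and MRPS18C are paralogs related to bacterial S18. MRPS18A, of the large subunit, had 10.24, 10.22 and 10.22 in starvation with metformin, 10.29, 10.29 and 10.36 in starvation, and 10.30, 10.33 and 10.36 in normal growth. MRPS18B was highest in starvation with metformin and had 8.53, 8.54 and 8.54 in normal growth, close to its starvation values. MRPS18C had 6.42, 6.34 and 6.03 in starvation with metformin, and its groups overlapped in all comparisons. None of the 3 passed the test in any comparison. MRPS30, the other large subunit protein with an MRPS name, had 9.42, 9.38 and 9.36 in starvation with metformin, 9.51, 9.27 and 9.46 in starvation, and 9.41, 9.40 and 9.42 in normal growth.

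Genes that work with the mitochondrial ribosome were counted from fixed lists. The counts stand beside 2.89% of all named genes called lower and 3.14% called higher in starvation with metformin against starvation, and 6.36% and 6.15% against normal growth, and nothing particular to a list is read from them. In starvation none of the genes of these lists was called. Of 4 measured ribosomal proteins with other symbols, among them DAP3 and PTCD3, none was called in any comparison. Of 27 assembly factors, TRUB2, a pseudouridine synthase, fell in starvation with metformin against starvation (-0.40) and against normal growth (-0.44), and the methyltransferase MRM2 fell against normal growth alone (-0.27). Of 12 translation factors, 2 fell and none rose in either comparison with metformin. MRRF, the ribosome recycling factor, had 9.12, 8.92 and 8.93 in starvation with metformin, against 9.45, 9.44 and 9.48 in starvation and 9.47, 9.56 and 9.55 in normal growth. TSFM, the elongation factor that reloads EF-Tu, was 0.40 lower in starvation with metformin than in starvation and 0.44 lower than in normal growth.

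Of 18 genes of mitochondrial transcription and RNA processing, 2 fell in starvation with metformin against starvation and 5 against normal growth, and none rose. HSD17B10, a subunit of mitochondrial ribonuclease P, had 9.20, 9.36 and 9.17 in starvation with metformin, against 9.86, 9.95 and 9.88 in starvation and 10.05, 9.98 and 10.07 in normal growth. TRMT10C, another subunit of that enzyme, was 0.41 lower in starvation with metformin than in starvation and 0.50 lower than in normal growth. TWNK, the mitochondrial DNA helicase, SLIRP, which binds mitochondrial mRNAs, and TFB2M, a mitochondrial transcription factor, fell against normal growth by 0.36, 0.32 and 0.32. As a DNA helicase, TWNK lies outside the name of this list, and the count of 5 includes it. Of 9 nuclear regulators, MYC alone was called, at -0.77 against starvation and -0.85 against normal growth. NRF1, GABPA and YY1 were measured and not called. Of 16 mitochondrial aminoacyl-tRNA synthetases, CARS2 fell in both comparisons with metformin (-0.62 in each), and MARS2 and SARS2 fell against normal growth. Of 34 complex I subunits, none was called against starvation and 3 fell against normal growth (NDUFA11, NDUFB3 and NDUFB7).

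The proteins of the cytosolic ribosome, which translates nuclear mRNAs, were above 0 in most genes of their list with metformin. Of 67 genes, 4 rose and 2 fell in starvation with metformin against starvation, and 11 rose and 2 fell against normal growth, where 3.14% and 6.15% of all named genes rose and 2.89% and 6.36% fell. Their median log2 difference was 0.15 against starvation and 0.13 against normal growth, with 9 and 13 of the 67 below 0, beside 56.7% and 55.6% of all named genes. RPL17 rose most (0.76 against starvation, 0.71 against normal growth), and RPS23 fell (-0.72 and -0.73). The mean over the mitochondrial set minus the mean over the cytosolic set was -1.40, -1.39 and -1.42 on arrays A, B and C of starvation with metformin, -1.23, -1.21 and -1.23 in starvation, and -1.19, -1.18 and -1.18 in normal growth. The 3 groups did not overlap. The cytosolic mean alone was 10.41 to 10.46 in starvation with metformin, 10.25 to 10.33 in starvation and 10.28 to 10.33 in normal growth. The mitochondrial mean was 9.02 to 9.06, 9.04 to 9.11 and 9.10 to 9.15 in the same order. How often other pairs of gene sets separate in this way was not counted, and no test was made of this difference. An exact permutation test of 3 against 3 arrays cannot give a two-sided p below 0.1.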

How the data were processed

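The 9 arrays were used as the authors deposited them, as log2 values with no other normalization. Tools listed by the submitters are Affymetrix Expression Console, RMA and limma, while the paper lists Affymetrix Power Tools (versions: not given in the sources used here). The RMA method corrects background, quantile normalizes and summarises probe sets, which can give equal values on several arrays. Precision is limited by the number of arrays, 3 a group.

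For each comparison, lmFit and eBayes (limma 3.58.1, R 4.3.3) were run on its 6 arrays without a block. Two-sided p values were adjusted after Benjamini and Hochberg across 33297 probe sets. Of these, 19460 carry 1 symbol and 1754 several, and only the first are named. The RefSeq table held all 73 genes under their Entrez identifiers, with the same symbols. The members and lists were chosen with earlier results of these data known. Array values are given for called members with the largest differences, filled up to 4 a direction with the largest uncalled ones, for the paralogs of MRPS18, and for MRPL12 and MRPS30. MRPL46 was added after its values were seen. The fits were also run on simulated data with independent noise for each probe set. The changes planted there were larger than any difference of the 73 genes, so that run does not cover changes of their size. Alternatives covered the arrays fitted, scaling, filters, probe set choice, eBayes options, the methods' t-test, a replicate block and leaving out each array.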

Additional observations from a re-analysis of the deposited data

How the results depend on the processing

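In starvation with metformin against starvation, 0 genes were called higher and 2 lower. The fit of all 9 arrays called 2 higher and 5 lower, and eBayes with its trend and robust options 1 and 6. Without the probe sets under the 40th percentile, and with single-symbol probe sets only, 1 was higher and 5 lower. Shifting arrays to a common median left 0 lower, the methods' t-test 1, and leaving out 1 array 0 to 1. In starvation with metformin against normal growth, 2 were called higher and 5 lower. The fit of all 9 arrays, the removal of dim probe sets and single-symbol probe sets each called 4 higher and 11 lower, and the trend and robust options 4 and 12. A common median left 0 higher, the mean over a gene's probe sets 1, and the methods' t-test 1 higher and 3 lower. Leaving out 1 array gave 0 to 1 higher and 0 to 5 lower, with 0 lower without any 1 of the normal growth arrays. The median of the 73 genes there was -0.10, and -0.11 to -0.076 with 1 array left out. Filters on probe sets reduce the number of tests; the cause of the other shifts was not tested. In starvation against normal growth the count stayed at 0 in both directions under every alternative run, and MRPS18C ran from -0.33 to 0.048 with 1 array left out, turning positive without starvation replicate B. The median of the 73 genes stayed below 0 in all 3 comparisons under every alternative run.

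Nothing in the sources says that the letters A, B and C pair the arrays, and the arrays did not meet the limit set for pairing (every same-letter correlation over 0.1). Deviations from the group means of arrays with the same letter correlated between -0.249 and 0.294 in starvation with metformin against starvation, between 0.024 and 0.134 in starvation against normal growth, and between -0.164 and 0.0098 in starvation with metformin against normal growth, and passed 0.1 in 1, 1 and 0 of 3 pairs. The most extreme correlations joined different letters. They were 0.440 between array C of starvation with metformin and array B of starvation, and -0.383 between array A of starvation with metformin and array B of starvation. What such shared deviations do to the p values was not tested. With the letter as a replicate block, 0 genes were called in either direction in all 3 comparisons.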
